A study of Homo sapiens with 14 samples.

Results

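RNase H treatment of DNA from Nalm-6 cells with SF3B1 K700E was followed through 4 lists of DRIP-seq peaks, 2 from untreated DNA and 2 from DNA labelled RNH1. All peaks of these lists on chromosomes 1 to 22 and X were used, 948989 of the 1315747 peaks in the 8 Nalm-6 lists. Nalm-6 is a human pre-B cell leukemia line, and MT here means the line that carries SF3B1 K700E, a hotspot change in a splicing factor found in leukemias and myelodysplasia. The other 4 lists came from the isogenic WT line K700K, untreated and RNH1, with 366758 peaks, and were used only for comparison. Each genotype was represented by 1 engineered line, so genotype and line cannot be told apart. RNH1 here was enzyme added overnight to naked DNA that HindIII, EcoRI, BsrGI, XbaI and SspI had cut, while the rest of the same cut DNA stayed untreated. Libraries of both treatments were then made from what the antibody S9.6 pulled down.

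An R-loop forms when RNA pairs with one strand of DNA and leaves the other strand single. S9.6 binds RNA:DNA hybrids, so DRIP-seq reads out the restriction fragments that carry them, although the antibody is also known to bind some double-stranded RNA. RNase H cuts the RNA of a hybrid and leaves the DNA, which is why a digested library is the usual specificity control of the method: a peak that depends on a hybrid should be gone from it. An untreated peak was called lost when none of its bases lay in a peak of the RNH1 list with the same replicate number, and kept otherwise. An RNH1 peak that touched no untreated peak of its number was called gained. Fold enrichment is the reads at the summit of a peak over the local background, as the peak caller gave it. Peaks of all 4 lists were also merged into regions. A region was lost in both when both untreated lists and neither RNH1 list had a peak there, kept in both when all 4 lists had one, and gained in both when both RNH1 lists and neither untreated list did.

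The edges of the peaks carried the mark of the restriction enzymes in each class, so a few edges are shown first. Each sequence below is 60 bases of GRCh38 (plus strand) around the start or end of 1 of the 5 strongest lost, kept or gained regions, with the recognition site of the enzyme in capitals. Only edges within 50 bp of a cut site were eligible, so the 6 are examples and not a sample of all edges. In each the region ended at the base where the enzyme cuts. For SspI this is the middle of the site and for the other enzymes the outer base of the overhang.
Lost region 2, start, SspI, chr10:61497278-61497337: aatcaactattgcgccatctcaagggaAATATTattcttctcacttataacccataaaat
Lost region 4, start, HindIII, chr10:5495707-5495766: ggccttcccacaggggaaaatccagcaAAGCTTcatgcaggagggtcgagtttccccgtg
Kept region 3, end, BsrGI, chr18:30098692-30098751: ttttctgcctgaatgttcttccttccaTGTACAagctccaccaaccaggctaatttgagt
Kept region 4, end, SspI, chr10:16910652-16910711: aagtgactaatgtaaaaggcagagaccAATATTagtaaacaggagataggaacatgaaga
Gained region 1, start, XbaI, chr11:109840874-109840933: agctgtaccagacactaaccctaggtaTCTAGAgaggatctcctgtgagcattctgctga
Gained region 3, end, EcoRI, chr3:17120048-17120107: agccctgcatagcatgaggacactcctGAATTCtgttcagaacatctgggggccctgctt

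In all 4 lists more than 1 peak in 4 began exactly on a cut position: 26.8% and 28.0% of untreated peaks, and 27.4% and 26.5% of RNH1 peaks. Cut positions make up 0.197% of bases. At least 1 of the peak's ends was exact for 51.3% and 53.2% of lost peaks, 52.9% and 55.4% of kept peaks and 51.3% and 47.4% of gained peaks. Only the gained peaks of replicate 2 fell below 50%. Sites were also nearly absent from the inside of peaks: over the 4 lists, 98.1% of the peaks of 400 to under 500 bp had no site beyond 50 bp of their ends, against 53.3% of genome tiles of 442 bp. These cut-position counts were made after the data had been seen.

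**Figure D1:**
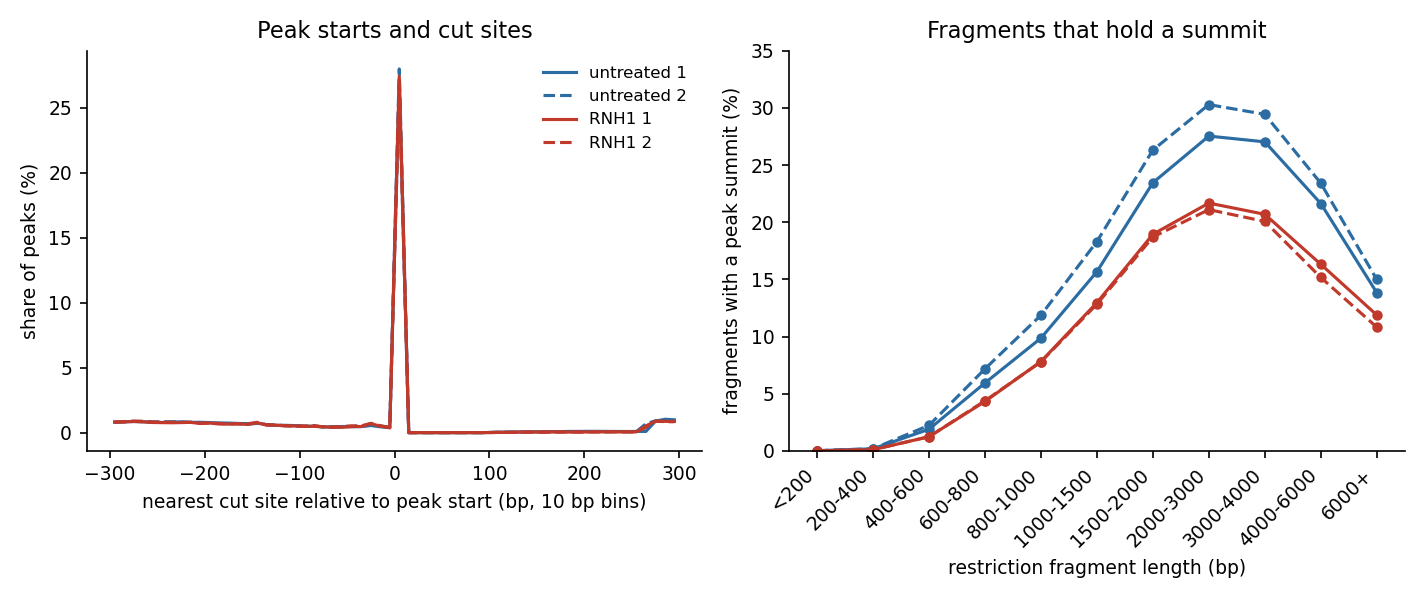
Left, the share of peaks (%) by position of the nearest cut site relative to the peak start (bp), and right, the share of restriction fragments with a peak summit (%) by fragment length (bp), with 1 line for each MT list (blue untreated, red RNH1, solid replicate 1, dashed replicate 2). The 4 lines of the left panel lie on each other with 1 spike at the start, and in the right panel all lines peak at 2000 to under 3000 bp, at 27.5% and 30.3% untreated and 21.7% and 21.1% RNH1.

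Short restriction fragments seldom held a peak. Of 5720951 fragments in the reference, with a median of 318 bp, 57.8% were under 400 bp, with 18.6% of bases. These held 1.02% and 0.904% of untreated summits and 0.700% and 0.804% of RNH1 summits. No peak in the 4 lists was shorter than 264 bp, so the smallest fragments could not hold a whole peak. Fragments of 2000 to under 3000 bp held a summit in 27.5% and 30.3% of cases in untreated DNA and in 21.7% and 21.1% after RNH1. The median fragment under a lost peak was 1240 and 1228 bp, under a kept peak 1342 and 1319 bp, and under a gained peak 1270 and 1262 bp. Compared fragment by fragment in place of peak by peak, an alternative added after seeing the data, 50.3% ± 1.24 (SD, n = 2 pairs) were lost and 31.5% ± 5.75 (SD, n = 2 pairs) were gained.

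Fewer peaks were called after treatment in both pairs. Untreated 1 held 253744 peaks and untreated 2 held 295970, while RNH1 1 held 201117 and RNH1 2 held 198158. The groups did not overlap. The log2 ratio was −0.34 in pair 1 and −0.58 in pair 2, a mean of −0.46 ± 0.17 (SD, n = 2 pairs), with p = 0.333 by a two-sided exact permutation test, the smallest p that 2 against 2 libraries allow. With only peaks of at least 4-fold enrichment in both lists the mean was −0.20. The lists hold no read totals. The recovered local background, taken as its 1st percentile over the peaks of a list, was lower after treatment. It was 3.51 and 4.35 reads in the untreated lists and 2.76 and 2.55 in the RNH1 lists. Peaks covered 136.0 and 160.6 Mb of untreated DNA and 110.7 and 106.5 Mb after treatment. Median lengths of 439 and 441 bp (untreated) and 449 and 441 bp (RNH1) lay close together.

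In pair 1, 124490 of 253744 untreated peaks were lost (49.1%) and 129254 kept, and in pair 2, 151484 of 295970 were lost (51.2%) and 144486 kept. The mean lost share was 50.1% ± 1.5 (SD, n = 2 pairs). Gained peaks were 72285 of 201117 RNH1 peaks in pair 1 (35.9%) and 53523 of 198158 in pair 2 (27%). Their mean share was 31.5% ± 6.32 (SD, n = 2 pairs).

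**Figure D2:**
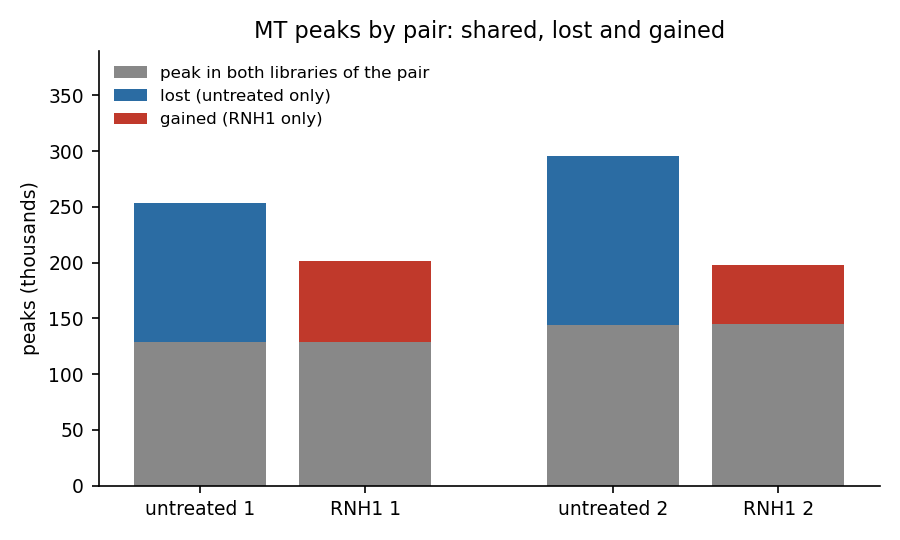
Number of peaks in each MT list on chromosomes 1 to 22 and X, with peaks that touch one in the other list of the pair in grey, lost peaks in blue and gained peaks in red. The 2 untreated bars, 253744 and 295970, stand above the 2 RNH1 bars, 201117 and 198158.

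Peaks also differed between lists of 1 treatment, which sets the background for these shares. Of the peaks of untreated 1, 18.9% had no counterpart in untreated 2, and 30.6% of the peaks of untreated 2 had none in untreated 1. Between the RNH1 lists the shares were 25.6% and 24.1%. The lost shares were above all 4 of these values, and the gained share of replicate 2 lay among them. When only untreated peaks present in both untreated lists were counted, 42.1% and 42.3% were lost in their pair, and 34.1% and 34.0% touched no peak of either RNH1 list. Of RNH1 peaks present in both RNH1 lists, 15.7% and 15.8% touched no untreated peak at all.

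Weak peaks were lost more often than strong ones. Below 3-fold enrichment 70.6% and 75.4% of untreated peaks were lost, but 48.8% and 63.4% of them were also absent from the other untreated list. At 10-fold and over, 10.7% and 10.3% were lost, where 0.375% and 2.25% were absent from the other untreated list. Gained shares also went down with enrichment, from 59.3% and 50.4% below 3-fold, where 63.1% and 54.9% were absent from the other RNH1 list, to 13.3% and 5.72% at 10-fold and over, where 1.29% and 0.834% were absent from the other RNH1 list. The gained share thus exceeded the difference between replicates among strong peaks and lay below it among the weakest.

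Short peaks were lost more often than long ones. Of untreated peaks of 250 to under 500 bp, 56.6% and 60.3% were lost, against 40.7% and 41.2% at 500 to under 1000 bp and 24.8% and 24.7% at 1000 to under 2000 bp. At 2000 bp and over 46 of 436 peaks (10.6%) and 81 of 696 (11.6%) were lost. The shortest class lost 47.4 ± 1.82 (SD, n = 2 pairs) percentage points more than the longest, and 24.3 points more when at least 50% of a peak had to be covered for it to count as kept. Peaks absent from the other untreated list were 25.7% and 42.2% in the shortest class and 0% and 0.287% in the longest. Gained shares were 44.4% and 34.0% in the shortest class and 2.53% and 2.59% in the longest. Long peaks have more bases in which to touch a peak of another list.

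**Figure D3:**
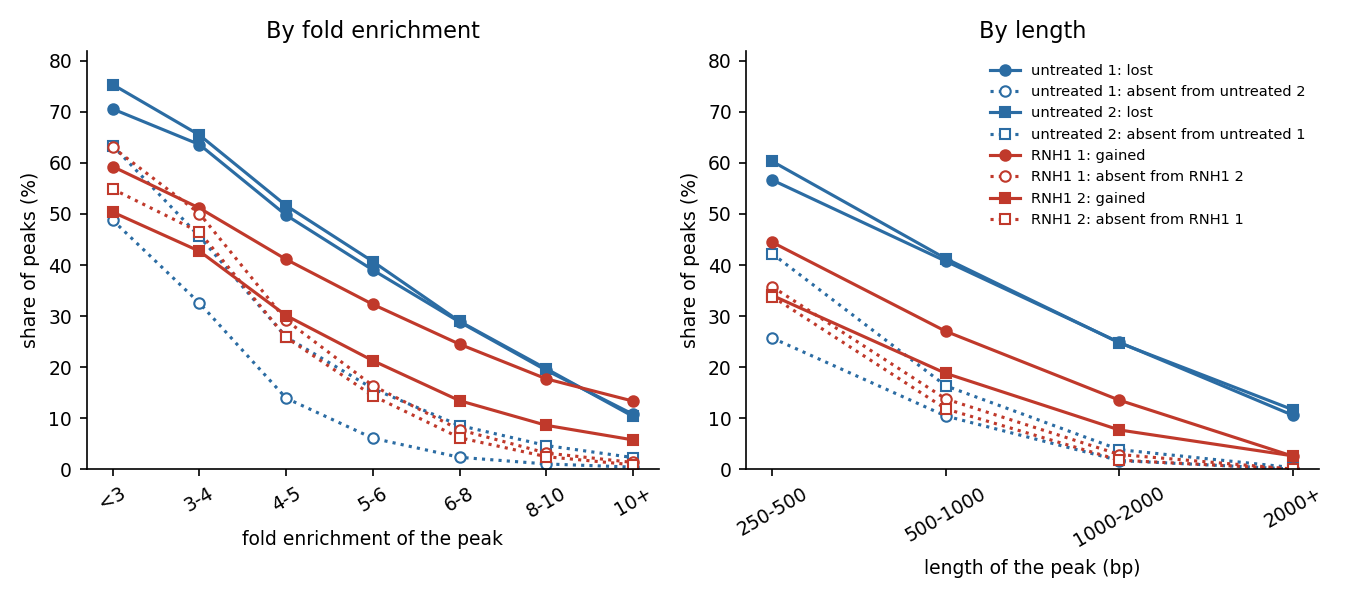
Share of peaks (%) lost (blue) or gained (red) by fold enrichment and by length (bp) of the peak, 1 filled line for each library, and, dotted with open points, the share absent from the other library of the same treatment. Lost shares stand above the dotted lines of the same library in each class, from 75.4% to 10.3% over enrichment classes and from 60.3% to 10.6% over length classes, whereas gained shares below 3-fold, and those of RNH1 2 below 4-fold, lie under them.

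Promoters, where transcription starts and many R-loops of CpG-rich genes form, lost a larger share than the space between genes. Within 3 kb of a start site 53.6% and 55.03% of peaks were lost, and between genes 47.6% and 49.7%. The difference was 5.66 ± 0.47 percentage points (SD, n = 2 pairs), and 8.02 points with promoters of 1 kb. Peaks of 3′ UTRs (59.4% and 60.02%), other exons (56.2% and 56.5%) and the short stretch downstream of genes (61.8% and 57.5%) were also lost more often, while introns (48.0% and 50.5%) lay near intergenic peaks. Gained shares had the reverse order for most of these: 5′ UTRs (24.4% and 15.5%), 3′ UTRs (28.6% and 21.3%) and exons (29.5% and 22%) were below introns (35.7% and 26.7%) and intergenic peaks (37.5% and 28.3%). By the kind of gene overlapped, protein-coding genes lost 50.4% and 52.6%, long noncoding RNA genes 48.0% and 50.1% and pseudogenes 50.7% and 52.1%. These kinds differed by less than the gene classes did.

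GC content at the summit separated lost peaks further. In 300-base windows with 55% GC or more, 67.1% and 67.8% of untreated peaks were lost, and in windows of under 30% GC 44.8% and 49.5% were lost. The GC-rich class held 1.88% and 1.43% of untreated peaks, against 6.42% of genome windows. The class under 30% held 1.02% and 1.29%, against 8.62%. Median enrichment was 3.91 and 3.74 in the GC-rich class and 4.43 and 4.36 under 30%, and weak peaks were lost more often. The lowest shares were in pair 1 at 43.4% and in pair 2 at 46.9%, in neighbouring AT-rich classes. Gained shares were U-shaped, 50.3% and 34.5% below 30% GC, 31.7% and 23.7% in the middle class, and 43.7% and 37.4% at 55% and over. Median GC was 42.0% and 41.3% for lost, 40.7% and 40.3% for kept, and 39.7% in both pairs for gained peaks. GC content also affects how well DNA is amplified and sequenced, and its part in these shares was not tested.

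**Figure D4:**
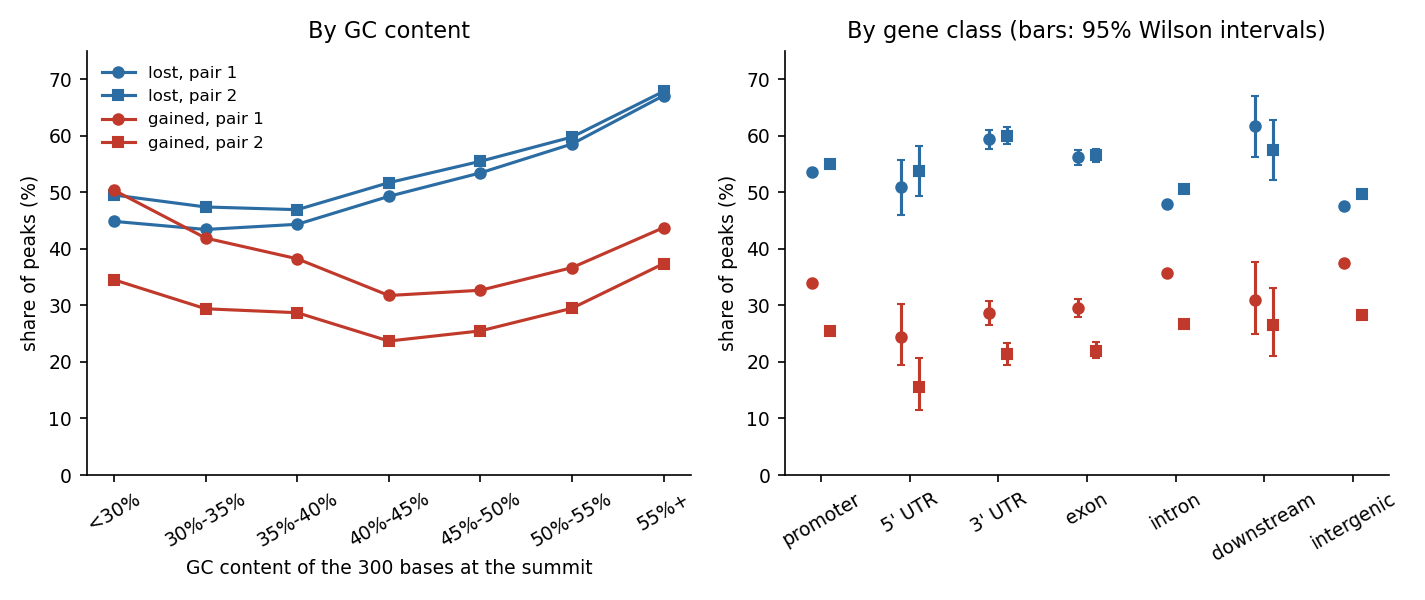
Share of peaks (%) lost (blue) or gained (red) by GC content of the 300 bases at the summit (left) and by gene class (right, with 95% Wilson intervals that cover counting error only), for pair 1 (circles) and pair 2 (squares). Lost shares reach 67.1% and 67.8% at 55% GC and over, and gained shares are lowest in the middle of the GC range.

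Runs of purines on one strand, which stabilise RNA:DNA hybrids when the RNA holds the purines, were commoner in gained peaks. A run of at least 20 bases that are all A or G, or all C or T, lay in 8.14% and 7.97% of gained windows, 5.48% and 5.32% of kept windows and 4.65% and 4.56% of lost windows. Over genome tiles of the same length the share was 6.84%. Runs of at least 12 bases of A, or of T, were in 5.69% and 5.58% of gained, 4.14% and 4.09% of kept and 3.91% and 4.10% of lost windows, with 6.49% in the genome. The G4 motif, 4 runs of GGG (or of CCC, for the other strand) with 1 to 7 bases between them, which can fold into a quadruplex, was in 2.35% and 2.45% of gained, 2.14% and 1.97% of kept and 2.34% and 2.12% of lost windows, with 3.12% in the genome. Such runs are also often repeats, where reads map less surely.

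Kept peaks are by definition those still called after treatment, so peaks that dropped out are missing from the comparison of their enrichment. Over the kept peaks the log2 ratio of the medians was 0.16 in pair 1 and 0.06 in pair 2, a mean of 0.11 ± 0.07 (SD, n = 2 pairs), with p = 0.333 by a two-sided exact permutation test. Without the pseudocount of the peak caller the mean was 0.19. RNH1 values were higher at 63.4% of kept peaks in pair 1 and 58.4% in pair 2. They were more than 2-fold higher at 5.72% and 3.18% of kept peaks and more than 2-fold lower at 1.25% and 1.78%. Fold enrichment is relative to each library's own background, whose 1st percentile was lower in the RNH1 lists. Enrichment therefore does not measure the amount of hybrid in the DNA.

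The 4 lists merged into 403364 regions. Peaks in all 4 lists marked 101551 regions, peaks in both untreated lists alone marked 68127, and peaks in both RNH1 lists alone marked 22687. Of the 202401 regions with a peak in both untreated lists, 33.7% were thus lost in both and 50.2% kept in both. Of the 148072 regions with a peak in both RNH1 lists, 15.3% were gained in both. The median region was 509 bp long when lost, 731 bp when kept and 488 bp when gained. Median enrichment was 4.18-fold in untreated DNA for lost regions, and in RNH1 DNA 5.80-fold for kept and 4.54-fold for gained regions. Merged regions showed the same gene classes as single peaks: 37.4% of promoter regions, 42.7% of 3′ UTR regions and 39.9% of exon regions were lost in both, against 32.7% of intron and 32.3% of intergenic regions. Gained-in-both shares were 14.0% for promoters and 16.5% between genes. Enrichment was higher after treatment in both pairs at 48.6% of kept regions and lower in both at 24.7%, with 1664 regions over 2-fold higher in both pairs and 408 over 2-fold lower.

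The 5 strongest regions lost in both, ranked by their untreated enrichment, had 13.4- to 19.1-fold enrichment in untreated DNA and no peak in either RNH1 list. Inside RGS6, a regulator of G protein signalling (chr14:72471329-72472067), untreated enrichment was 16.4 and 17.8. This region lay within 3 kb of an annotated transcript start, which need not be the main start of RGS6. An intergenic region 43.9 kb from TMEM26, a membrane protein gene (chr10:61497308-61497661), had 16.3 and 16.9. Another intergenic region, chr10:9190563-9190938, had 19.1 and 14.0 and lay 1115 kb from GATA3, the nearest protein-coding gene. The last were a region 2.60 kb from CALML5, a calmodulin-like gene (chr10:5495735-5496097), with 15.5 and 16.4, and one in introns of ZNF827 and C4orf51 (chr4:145767401-145767695) with 13.4 and 16.9.

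The 5 strongest kept regions were ranked by their RNH1 enrichment, which favours places where it was the higher value, so their values are a description only. The widest gaps were inside BTK, the kinase of B cell receptor signalling, and CUBN, the receptor gene cubilin. The BTK region, in an annotated 3′ UTR (chrX:101369712-101370297), had 11.1 and 12.9 in untreated and 28.2 and 27.4 in RNH1 DNA. The CUBN region (chr10:16910182-16910681) had 12.6 and 12.9 against 27.7 and 25.9. It lay within 3 kb of an annotated transcript start, which need not be the main start of CUBN. The other 3 differed less: chr21:8234128-8234800, next to an annotated start site, had 27.8 and 26.2 against 29.3 and 29.4, the intergenic chr18:30098255-30098723 had 23.1 and 23.5 against 27.9 and 26.9, and an intron of the noncoding gene PURPL (chr5:27348327-27348769) had 23 and 22 against 26.9 and 26.1.

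Of the strongest regions gained in both, 4 are described, with 22.8- to 26.3-fold enrichment in RNH1 DNA and no peak in untreated DNA. They were an intron of the noncoding gene ENSG00000289465 (chr11:109840902-109841381) with 26.3 and 23.3, and an intergenic region 571 kb from PLD5P1 (chr10:38931227-38931585) with 25.5 and 23. A region 29.1 kb from PLCL2, a phospholipase C-like gene (chr3:17119693-17120079), had 25.4 and 22.8. An intron of PRKG1, a cGMP-dependent kinase gene (chr10:51048182-51048587), had 25.1 and 22.9.

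**Figure D5:**
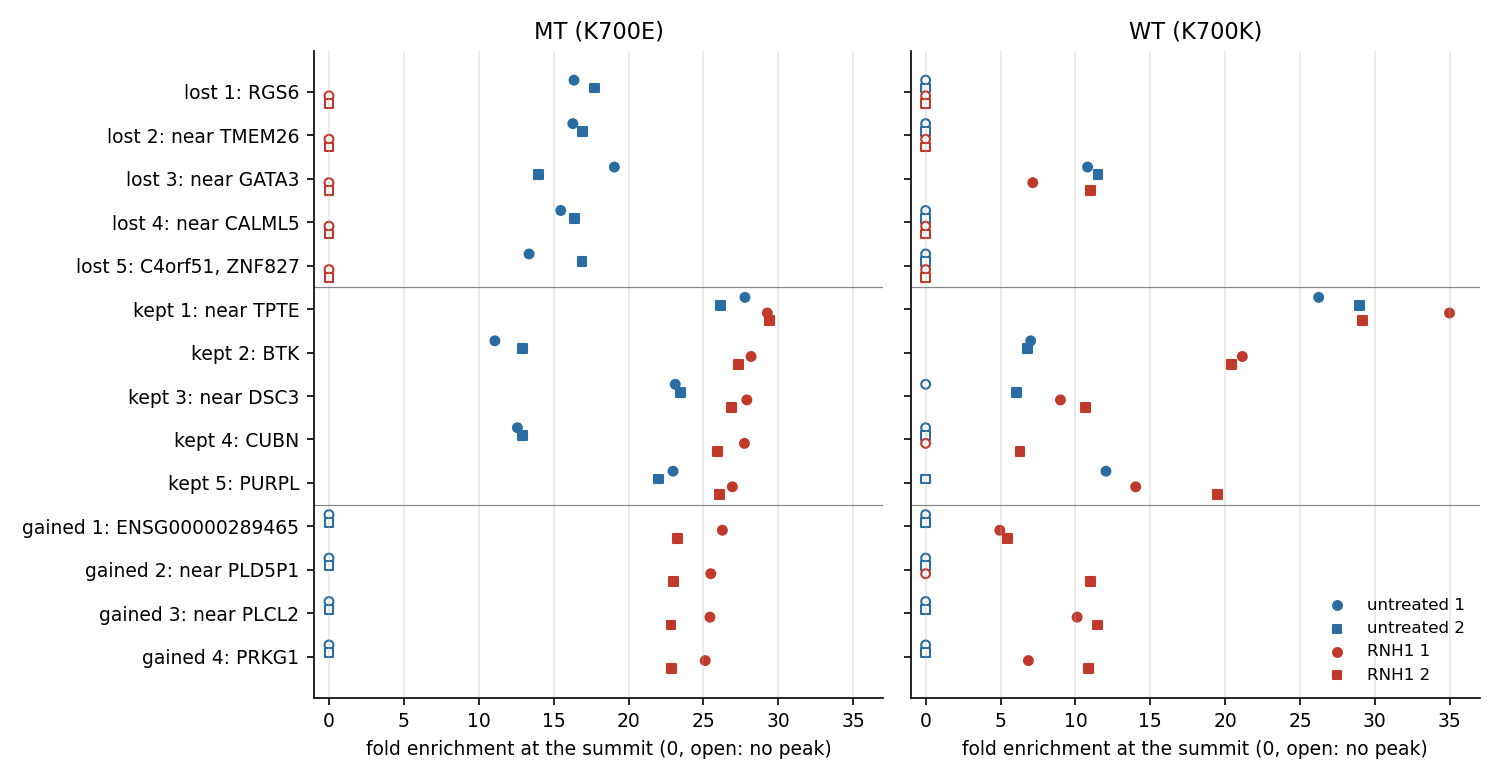
Fold enrichment at the summit of the 5 strongest regions lost and kept in both and 4 of the strongest gained in both, in MT (left) and WT (right) lists, with untreated in blue and RNH1 in red, circles for replicate 1, squares for replicate 2 and open points at 0 for no peak. In MT, lost regions have values from 13.4 to 19.1 in untreated DNA only and gained regions from 22.8 to 26.3 in RNH1 DNA only, and in WT all filled points of gained regions are RNH1.

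The WT lists played no part in choosing these regions and were read at the same places. Over all MT regions, 18.3% and 19.6% had a WT untreated peak and 6.32% and 13.8% a WT RNH1 peak. Regions lost in both in MT had a WT untreated peak in 19.2% and 19.7% of cases and a WT RNH1 peak in 1.79% and 4.65%, below the share over all regions in both WT RNH1 lists. Regions gained in both had a WT untreated peak in 8.08% and 9.75% and a WT RNH1 peak in 10.001% and 19.6%, so they were below all regions in untreated WT DNA and above them in treated WT DNA. Kept regions had the highest shares, 33.4% and 35.7% untreated and 15.5% and 32.1% RNH1.

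At 10-fold enrichment and over the contrast was wider. Of 667 gained regions, 11.1% and 13.0% had a WT untreated peak and 36.7% and 45.6% a WT RNH1 peak. Of 407 lost regions, 26.3% and 27.3% had a WT untreated peak and 2.95% and 4.42% a WT RNH1 peak. Of 12091 kept regions, 46.0% and 49.1% had a WT untreated peak and 40.6% and 61.7% a WT RNH1 peak, above the gained regions in all 4 WT lists. Of the 4 named gained regions, the one near PLCL2 had 10.1 and 11.5 in the WT RNH1 lists, PRKG1 6.86 and 10.9, and ENSG00000289465 4.96 and 5.46, while the one nearest PLD5P1 had 11.0 in WT RNH1 2 only. None of them had a WT untreated peak. Of the 5 lost regions only chr10:9190563-9190938 had WT peaks, with 10.8 and 11.5 untreated and 7.15 and 11.0 after RNH1. BTK had 7.01 and 6.79 in WT untreated and 21.1 and 20.4 in WT RNH1 DNA, without overlap.

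The lost share itself was lower in MT than in WT, where 81.9% and 65.8% of untreated peaks were lost. The difference was −32.9 points for replicate 1 and −14.6 points for replicate 2, a mean of −23.8 ± 11.5 (SD, n = 2 pairs of each genotype), with p = 0.333 by a two-sided exact permutation test. The WT RNH1 lists held 34857 and 77391 peaks, fewer than any MT list, and the part of list length in the difference was not tested. With the deeper library of each pair thinned to the background of the other, the difference was −22.5 points. That thinning left all RNH1 lists as they were, so it does not match depth between MT and WT.

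By chromosome the lost share moved little. It was lowest on chromosome 4, with 46.8% and 49.0%, and highest on the GC- and gene-rich chromosomes 22 (55.2% and 55.7%), 19 (53.7% and 55.7%), 16 (52.9% and 55.9%) and 17 (52.5% and 54.9%). Gained shares stood apart on X, with 3353 of 6022 RNH1 peaks (55.7%) and 2779 of 6083 (45.7%), and on chromosome 19, with 45.4% and 35.8%. The other chromosomes ran from 33.6% to 40.2% in pair 1 and from 25.1% to 31.9% in pair 2. X held 5486 and 7101 untreated peaks and 6022 and 6083 RNH1 peaks, a log2 ratio of 0.13 in pair 1 and −0.22 in pair 2. These were the highest ratios of the 23 chromosomes in each pair, and X was the only one above 0, in pair 1. X was also sparse in peaks, 35.2 and 45.5 per Mb untreated, where chromosome 7 had 88.2 and 102. In WT, X gained 46.3% and 46.9%, below chromosomes 19 (53.6% and 63.5%) and 22 (47.5% and 56.9%) in both pairs and below 16, 17 and 20 as well in pair 2.

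Centromeres hold long arrays of alpha satellite, the repeat on which the kinetochore is built, and R-loops there act in chromosome segregation. In 32 alpha-satellite regions found in the reference, 325 of 599 untreated peaks were lost in pair 1 (54.3%, 95% Wilson interval 50.3% to 58.2%) and 368 of 662 in pair 2 (55.6%, 51.8% to 59.3%). Elsewhere 49.0% and 51.2% were lost, a difference of 4.81 ± 0.56 points (SD, n = 2 pairs). Chromosomes differed in direction: in the regions of chromosome 11, 66.2% and 73.6% were lost, but on chromosome 20 the shares were 37.3% and 43.4%. On chromosome 16 only 9 of 27 and 5 of 29 peaks were lost. The regions join bins up to 500 kb apart, so they also hold sequence between the bins that passed as alpha satellite. With only the bins that themselves passed as alpha satellite, the difference was 10.3 points. The intervals cover counting error only. Gained shares were higher too, 48.1% and 45.5% against 35.9% and 27% elsewhere. Of merged regions in alpha satellite 172 of 428 were lost in both (40.2%, against 33.6% elsewhere) and 86 of 362 gained in both (23.8%, against 15.3% elsewhere), so both shares were above those of the other regions. Reads of near-identical repeats cannot be placed surely, so a peak there names a family of repeats and not 1 place.

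Genes were read at their start sites, where a peak counted when it lay within 1 kb of one. Of 19970 protein-coding genes, 5314 had such a peak in both untreated lists, of which 1832 (34.5%) were lost in both pairs and 2589 (48.7%) kept in both. All lists of genes below are set against these shares, and most are too small to stand apart from them. Where values are said not to overlap, 2 libraries stood against 2. The smallest p of a two-sided exact permutation test is then 0.333, and the share of all genes without overlap was not counted.

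Of 12 textbook R-loop genes 8 had no start-site peak in either pair, beside 12023 of the 19970 protein-coding genes. Only SNRPN and MALAT1 of 12 had one in both untreated lists, and both were kept. SNRPN was placed in this list here, but the study used it as a negative control for R-loops. At SNRPN, of the imprinted Prader-Willi locus, enrichment was 5.52 and 4.71 untreated and 3.19 and 4.44 after RNH1, lower in treated DNA without overlap. At MALAT1, an abundant nuclear noncoding RNA, it was 4.05 and 4.30 against 4.78 and 4.10, with overlap. ACTB, APOE, CALM3, GADD45A, JUN, NEAT1, RPL13A and TFPT had no start-site peak in any of the 4 lists.

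Histone genes that are transcribed in S phase had peaks in both untreated lists at 5 of 69 genes, of which 4 were lost and 1 kept. H3C6 was lost from 4.21 and 5.05, and the neighbours H2AC1 and H2BC1 shared 1 lost peak with 4.08 and 4.17. H2BC5 was kept with 5.76 and 4.11 untreated and 7.19 and 7.68 after RNH1, higher without overlap. Ribosomal protein genes had 11 of 78 with peaks, 6 lost and 4 kept. RPL27 (6.20 and 4.99), RPS13 (3.99 and 5.98) and RPS24 (4.85 and 4.18) had no RNH1 peak. RPL11 was kept with 12.1 and 12 untreated beside 12.6 and 14.0 after RNH1, higher without overlap. The kept RPL10L had 6.73 and 8.34 against 6.34 and 7.03, and RPL4 had 5.46 and 4.66 against 5.34 and 5.59.

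Of 15 B-lineage genes, 7 had peaks in both untreated lists, 6 were kept in both pairs and 0 lost in both. RAG2, of the recombinase that joins antibody gene segments, had 8.36 and 9.82 untreated and 10.2 and 13.2 after RNH1, and its partner RAG1 had 7.67 and 6.91 against 5.60 and 5.60. IKZF1, a lymphoid transcription factor, had 6.67 and 7.70 against 7.61 and 7.26. RAG2 thus had higher and RAG1 lower values after treatment, each without overlap, while the values of IKZF1 overlapped. Of the other kept genes, EBF1 (6.02 and 6.87 against 4.38 and 4.45) and BLNK (7.21 and 6.93 against 6.18 and 5.65) were lower without overlap. CD22 had 5.76 and 6.19 untreated and 3.94 in RNH1 2 only. MME was kept in 1 pair and lost in the other.

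Genes of R-loop processing had 12 of 21 with peaks in both untreated lists, 2 lost and 6 kept in both pairs. The lost genes were DHX9, a helicase that unwinds hybrids (4.65 and 3.92), and SERBP1, an RNA-binding protein (3.77 and 3.19), both weak peaks. BRCA1, a DNA repair gene, had 10.2 and 8.22 untreated and 5.33 and 6.02 after RNH1, without overlap. FANCD2 of the Fanconi pathway had 7.83 and 8.36 against 7.06 and 7.67, lower after RNH1 without overlap. TOP1, topoisomerase I, had 6.45 and 5.89 against 7.09 and 5.15, with overlap. AQR, a helicase of the spliceosome, was gained in both with 5.32 and 5.35, and was chosen for mention after its values were seen. It was the only 1 of the 21 gained in both, beside 212 of 19970 protein-coding genes.

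Zinc finger genes of chromosome 19 gave larger numbers: 60 of 240 had peaks in both untreated lists, with 21 lost (35%) and 25 kept (41.7%). Of the 240 genes 7 were gained in both, beside 212 of all 19970 protein-coding genes. Lost were ZNF471 (9.52 and 9.5), ZNF486 (9.81 and 8.03) and ZNF230 (8.20 and 7.48). ZNF223 was kept with 9.08 and 9.53 untreated against 14.6 and 16.0 after RNH1, higher without overlap, while ZNF784 (7.38 and 7.89 against 6.39 and 6.13) and ZNF677 (7.66 and 7.40 against 7.26 and 6.44) were lower without overlap. The lost share of this list lay within a point of that of all protein-coding genes, while its kept share was below their 48.7%.

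Long genes, of at least 500 kb, had 203 of 322 with peaks in both untreated lists, 58 lost (28.6%) and 115 kept (56.7%). TENM2, a teneurin of neuronal contacts, was lost from 7.98 and 8.01, and ZNF385D from 6.65 and 7.85. NTM, an adhesion gene, was lost from 7.75 and 6.90, although its window held another, weaker RNH1 peak in each list. EXOC4 of the exocyst was kept with 13.6 and 13.8 against 19.3 and 15.7, ANK2 with 11.5 and 15.2 against 19.2 and 17.7, and PDE10A, a phosphodiesterase, with 13.1 and 13.2 against 7.46 and 9.36. EXOC4 and ANK2 were higher and PDE10A lower after treatment, each without overlap.

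Loci that had been assayed by DRIP-qPCR in Nalm-6 were placed by exact matches of their primers. BTBD19, EGR1, ING3, NOP58, LOC440704 and DDX10 had no peak in any MT list on the restriction fragment that holds the amplicon. SLC9A5 had 6.54 and 7.54 at its amplicon in untreated DNA and no RNH1 peak there, although RNH1 1 had 4.76 elsewhere on the fragment. SNRPN, the negative control of the study, had 5.09 at the amplicon in untreated 2 only. Its fragment had 6.42 and 5.09 in untreated DNA and 3.10 in RNH1 2. On the 633-bp fragment of ZNF90, a zinc finger gene, enrichment was 16.5 and 15.6 in untreated DNA and 8.25 and 6.75 in RNH1 DNA, without overlap, but only the peak of untreated 2 reached the amplicon. No peak in a list means that none passed the threshold of the peak caller, not that no hybrid was there.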

How the data were processed

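DRIP-seq peak lists of Nalm-6 cells were used, 2 MT untreated, 2 MT RNH1 and, for comparison, 2 libraries of each WT group, grouped by their labels. Methods state that the authors aligned reads to GRCh38 with BWA-MEM, removed duplicates with Picard and called narrow peaks with MACS2. They describe bona fide peaks set against treated samples, whereas the deposited lists are 1 for each library and were used as such. The deposited fold enrichment is a ratio over local background with a pseudocount of 1, and the authors' peak caller also gave −log10 p-values and q-values and a whole-number score. Methods give a q of 0.05, but the lists hold only q of 0.01 or lower. Methods also name a paired-end setting of the caller and single reads, which was not settled. As no read totals are given, pileups at summits and in the background were worked back from each peak's fold enrichment and −log10 p-value.

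Peaks on chromosomes 1 to 22 and X were compared by shared bases within replicate numbers, with Python 3.11.15, numpy 2.4.6, pandas 2.3.3 and scipy 1.17.1. Treated and untreated DNA came from 1 digest per Methods. Untreated 1 was found in RNH1 1 for 50.9% and in RNH1 2 for 50.6% of its peaks, and untreated 2 in RNH1 2 for 48.8% and in RNH1 1 for 49.1%, so the numbers did not bring lists closer. Gene classes followed GENCODE 44, with promoters of 3 kb and downstream stretches of 300 bp. Alpha-satellite regions were found by their monomer period in 10-kb bins with at least 40% equal bases at that lag. Such bins up to 500 kb apart were joined, and regions with at least 10 bins were used. The class under 250 bp was empty, so peaks of 250 to under 500 bp were the shortest. Nothing states that replicates came from separate cultures, so p-values measure only the spread between libraries. No test was run over peaks, which are not replicates. Named regions were the 5 of each pattern with the highest mean enrichment, over the untreated lists for lost regions and over the RNH1 lists for kept and gained regions, of which 1 gained region is not reported here, and named genes the 3 of each list with the highest untreated enrichment among those lost and among those kept. Members and lists were chosen with earlier results of these data known. Scripts were tested on simulated data.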

Additional observations from a re-analysis of the deposited data

Results flagged for a closer look

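In the alpha-satellite regions the lost share was above that of other regions in both MT pairs, by 5.21 and 4.42 points, and below it in both WT pairs, by −4.59 and −3.16 points. In WT, 123 of 159 alpha-satellite peaks were lost in pair 1 (77.4%, 95% Wilson interval 70.3% to 83.2%) and 104 of 166 in pair 2 (62.7%, 55.1% to 69.6%), and both intervals hold the WT share elsewhere, 81.95% and 65.8%, so the WT differences lay within counting error. The means, 4.81 and −3.87 points, differed by 8.69 points. All pairs of one genotype moved one way and all pairs of the other the opposite way, but the difference itself was not tested.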

How the results depend on the processing

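Alternatives were run for the peak number, the enrichment at kept peaks, the lost and gained shares, the 3 differences of lost shares between classes and MT minus WT. None reversed the sign of a ratio or difference. The lost and gained shares have no sign to reverse, so only their size could move. Other values, such as those by GC content, by chromosome and of gene lists, had no alternative run. With 2 libraries a group the exact permutation test cannot give p below 0.333, and each alternative with a p gave 0.333. Requiring 4-fold enrichment in both lists gave a lost share of 47.8%, a gained share of 40.02%, and differences of 4.45 points (promoter minus intergenic), 33.5 points (shortest minus longest) and 7.30 points (alpha satellite minus other). Requiring it of untreated peaks alone gave a lost share of 38.6% and differences of 4.33, 36.5 and 7.26 points. A −log10 q of at least 5 gave 39.3 points for length and 3.65 points for alpha satellite. Requiring 50% of a peak to be covered gave 54.99% lost, 24.3 points for length and 3.98 points for alpha satellite. Without the replicate block or pairing, with the lists of both replicates pooled, 42.0% were lost and 22.5% gained, and the length difference was 42.7 points. A pooled list is longer by construction, so fewer peaks miss it. Weighting classes to 1 distribution of enrichment gave 43.4 points for length, promoters of 1 kb gave 8.02 points, and strict alpha-satellite bins gave 10.3 points. Thinning the deeper library gave a log2 ratio of peak numbers of −0.40 and 49.0% lost. Leaving out a replicate gave ranges of −0.58 to −0.34 for the log2 peak number, 0.06 to 0.16 for log2 enrichment, 49.1% to 51.2% lost, 27% to 35.9% gained and −32.9 to −14.6 points for MT minus WT. The causes of these shifts were not tested. The lists carry no read totals, so depth is known only through the 1st percentile of local background.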

Other observations

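Among peaks that began exactly on a cut position, the share lost and gained differed by enzyme. At SspI sites 44.7% and 47.4% of such untreated peaks were lost, and at HindIII sites 49.5% and 50.1%. Gained shares were 39.0% and 27.5% at SspI, 40.3% and 29.8% at XbaI, and 27.5% and 19.6% at HindIII.

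Primers for the centromere of chromosome 1 matched 2129 positions on 3 chromosomes, all in alpha satellite, and 0 of these positions had a peak in any MT list. The median restriction fragment there was 339 bp, in the size range in which few summits were found anywhere. Primers for TERRA of 1q matched 2 places, of which the one on chromosome 1 had a peak only in RNH1 2, with 4.78-fold enrichment.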
